A study of Homo sapiens with 16 samples.

Results

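The comparison described here is that of LNCaP cells given siOGT2, an siRNA against OGT, with LNCaP cells given a scrambled siRNA (Scr), both under DMSO. Its members were chosen by the siRNA and agent fields of the labels, which put 4 of the 16 samples of the study in it (2 siOGT2 and 2 Scr), and all genes were considered. LNCaP is an established human prostate cancer line of luminal type, and each group comes from this line alone. Per the labels, OGT had been knocked down for 48 hours in the siOGT2 samples and DMSO was given for the last 4 hours before harvest. For the Scr samples the labels give no time since the siRNA was added. The other samples used below are 2 of a separate siRNA, siOGT1, under DMSO, and 2 each of Scr, siOGT1 and siOGT2 that received 0.5 μM AT7519, an inhibitor of cyclin-dependent kinases, in place of DMSO for 4 hours. The fit also held the remaining 4 samples, labelled OSMI2 in the siRNA field (2 under DMSO and 2 with AT7519), which enter no comparison here but share in the low-count filter and the estimate of spread. OSMI-2 is a compound known to block OGT activity. The labels give neither the sequences of the siRNAs nor whether replicates were separate cultures. The p-values therefore reflect the spread among these samples only, and that spread may be technical. RNA came from whole cultures, so fewer cells with a transcript and less of it per cell cannot be told apart.

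OGT encodes the only enzyme known to attach single N-acetylglucosamine residues (O-GlcNAc) to serines and threonines of nuclear and cytoplasmic proteins, and OGA (also called MGEA5) encodes the enzyme that removes them. The sugar donor, UDP-GlcNAc, is made by the hexosamine pathway. Transcripts of both OGT and OGA are known to respond to the level of O-GlcNAc in the cell. In prostate cancer cells O-GlcNAc has been tied to proliferation, MYC and the splicing of RNA.

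Values are CPM, that is, counts scaled by the effective library size (total count multiplied by the TMM scaling factor), and differences are log2 fold changes with their SE. A gene was called at an adjusted p under 0.05 in edgeR's quasi-likelihood test, fitted over all 16 samples and adjusted over all 23830 tested genes. The siOGT2 libraries held 53782868 and 48354151 counts and the Scr libraries 107364119 and 68529552, against 40216911 to 147019364 over the study. The 14 luminal prostate markers summed to 5995 and 6159 CPM in Scr and to 6042 and 6242 CPM in siOGT2. Basal markers summed to 44.7 to 48.7 CPM (KRT17 at 0), stromal and endothelial markers to 54.4 and 55.0 CPM in Scr and 47.9 and 49.8 CPM in siOGT2 (CDH5 at 0), neuroendocrine markers to 13.4 to 18.2 CPM (CHGB, INSM1 and NEUROD1 among those at 0) and leukocyte markers to 0.451 to 0.836 CPM (CD3D and MS4A1 at 0). Of the stromal markers 1 was called, VIM, the vimentin gene, which rose while the sum of its list was lower (6.004 and 7.06 CPM in Scr, 9.91 and 13.1 CPM in siOGT2; 0.82, SE 0.17, adjusted p = 0.0085, or 0.122 without Scr replicate 1 and 0.201 without siOGT2 replicate 2). VIM overlaps VIM-AS1 on the opposite strand.

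With siOGT2, 1025 genes were called (4.30% of those tested), of which 457 rose (1.92%) and 568 fell (2.38%). Most changes were small. The median log2 fold change was 0.62 among the rises and -0.46 among the falls, and 106 rises and 52 falls reached 2-fold. Protein-coding genes made up most of the calls, with 372 rises and 531 falls among 14576 tested (median of all tested -0.033). Long non-coding genes gave 66 rises and 26 falls among 4838 (median 0.041). Among the 9722 protein-coding genes with a mean log2 CPM of 3 or more, 7.53% were called, with 259 rises and 473 falls. The direction of the balance moved with the scaling: rises were 44.6% of calls with TMM, 55.1% with upper-quartile scaling and 62.5% with library size only. The count fell to 302 without Scr replicate 1, 253 without Scr replicate 2, 396 without siOGT2 replicate 1 and 182 without siOGT2 replicate 2, and all 1025 genes kept their sign in each of these fits.

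OGT itself (ENSG00000147162, chromosome X) was at 274 and 263 CPM in the Scr samples and at 36.0 and 29.8 CPM in the siOGT2 samples. This is a log2 fold change of -3.03 (SE 0.14, adjusted p = 1.35e-09), or 8.16-fold less. OGA (ENSG00000198408, chromosome 10) was at 331 and 289 CPM in Scr and at 62.3 and 40.7 CPM in siOGT2, a log2 fold change of -2.59 (SE 0.23, adjusted p = 1.79e-04). The groups were far apart for both genes, and these were the lowest fold changes among the genes with a mean log2 CPM of 3 or more that could be named. Both calls held without any 1 of the 4 libraries, with adjusted p up to 9.83e-08 for OGT and 0.00404 for OGA.

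Around these enzymes, 1 further gene of the pathway that makes UDP-GlcNAc was called. Of 20 tested genes of O-GlcNAc cycling and the hexosamine pathway, OGT and OGA included, 3 fell, 17 did not pass and 0 rose. Their median was -0.039 against -0.019 over all tested genes. The share that fell was 15%, against 2.38% of all tested genes. It counts OGT, the target of the siRNA, and OGA, so it does not describe the rest of the pathway. The third fall was in UAP1, which makes UDP-GlcNAc from its phosphorylated precursor and went from 251 and 300 CPM to 188 and 210 CPM (-0.47, SE 0.09, adjusted p = 0.00338). Its call was lost without Scr replicate 2 (adjusted p = 0.10) or siOGT2 replicate 1 (adjusted p = 0.0615). GFPT1, the entry enzyme of the pathway, had a value of 0.095 (adjusted p = 0.625), PGM3 one of 0.18 (adjusted p = 0.273) and GNPNAT1 one of -0.21 (adjusted p = 0.283). Among 23 chromatin and transcription factors that partner with OGT, 1 rose, ZNF143, which encodes a zinc finger activator and went from 36.7 and 40.6 CPM to 60.5 and 75.1 CPM (0.81, SE 0.10, adjusted p = 1.57e-04). The share of this list that was called, 4.35%, was close to the 4.30% of all tested genes. HCFC1, the best known of these partners, was at 136 and 141 CPM in Scr and 134 and 139 CPM in siOGT2 (-0.019, adjusted p = 0.963).

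The largest rises among the more abundant genes joined several functions. In the 12 genes named by the rule (a mean log2 CPM of 3 or more, both siOGT2 samples above both Scr samples, which held for 22.9% of tested genes), the log2 fold changes ran from 0.94 to 1.63. FBXO15, which encodes the substrate-binding part of a ubiquitin ligase, went from 5.26 and 4.93 CPM to 12.7 and 17.1 CPM (1.55, SE 0.15, adjusted p = 7.67e-06). PRKAR1B, which encodes a regulatory subunit of protein kinase A, went from 15.8 and 15.7 CPM to 30.5 and 31.9 CPM (0.99, SE 0.10, adjusted p = 1.40e-05), and SERPINI1, which encodes the protease inhibitor neuroserpin, from 13.4 and 11.5 CPM to 25.3 and 24.2 CPM (0.99, SE 0.15, adjusted p = 6.35e-04). The samples of a group lay close together for both. KCTD7, a relative of potassium channel subunits (10.2 and 11.6 to 19.7 and 22.0 CPM), TMOD2, which caps actin filaments (12.7 and 13.8 to 22.8 and 29.3 CPM), and the lipid flippase gene ATP8B2 (12.2 and 15.3 to 28.1 and 34.8 CPM) were also among these rises.

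PCLO, which encodes a presynaptic scaffold, went from 8.63 and 10.4 CPM to 16.1 and 22.6 CPM (1.02, SE 0.17, adjusted p = 0.00139), a call lost without siOGT2 replicate 2 (adjusted p = 0.0589). RDH10, which makes retinaldehyde from retinol, went from 17.5 and 17.9 CPM to 36.9 and 43.1 CPM (1.18, SE 0.13). APOLD1, an apolipoprotein L domain gene, went from 6.61 and 6.45 CPM to 17.5 and 23.1 CPM (1.63, SE 0.17, adjusted p = 1.18e-05), and CCT6B, a chaperonin subunit gene, from 9.35 and 8.87 CPM to 16.8 and 18.2 CPM (0.94, SE 0.14). These 3 overlap other tested genes in GENCODE v29: RDH10 overlaps RPL7 and RDH10-AS1 on the opposite strand, CCT6B overlaps LIG3 and ZNF830 on the opposite strand, and APOLD1 overlaps DDX47 on its own strand. The labels do not say whether counting used the strand, so these values are uncertain. The same applies to other genes named in the text with a tested gene on the opposite strand, among them PRKAR1B (DNAAF5), TMOD2 (LYSMD2), MCM7 (AP4M1), CDK2 (PMEL), KIF20A (BRD8 and CDC23), HNRNPAB (PHYKPL), SRPK1 (LHFPL5), RPS23 (ATG10), PLPP1 (MTREX) and NBN (DECR1). The remaining rises, UGT2B11 and UGT2B15, are taken up with the androgen genes.

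**Figure D1:**
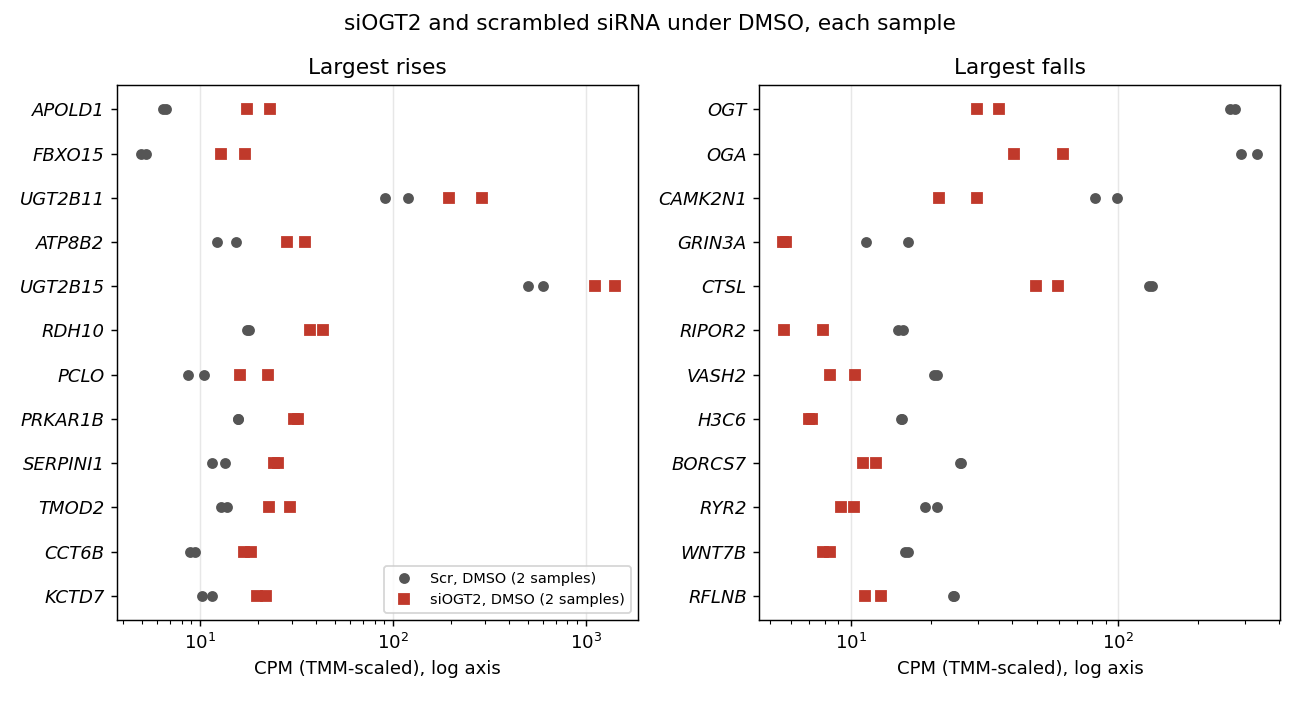
CPM (log axis, scaled by TMM) of the 12 largest rises (left) and the 12 largest falls (right) with siOGT2 under DMSO, 1 point per sample (2 Scr, 2 siOGT2). The genes were chosen so that the groups do not overlap. OGT and OGA fell from above 250 CPM to below 65 CPM, while most other genes changed by about 1 log2 unit.

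The 12 largest falls named by the same rule held OGT, OGA and 10 other genes. CAMK2N1, which encodes an inhibitor of the calcium/calmodulin kinase CaMKII, went from 99.1 and 82.3 CPM to 29.8 and 21.3 CPM (-1.83, SE 0.19, adjusted p = 1.95e-04). CTSL, the lysosomal protease cathepsin L, went from 134 and 130 CPM to 59.5 and 49.3 CPM (-1.28, SE 0.15, adjusted p = 2.83e-04). After OGT and OGA, CAMK2N1 had the lowest log2 fold change of the 12 named falls, and both genes kept their calls without any 1 library.

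GRIN3A, a subunit of NMDA-type glutamate receptors, went from 11.4 and 16.4 CPM to 5.59 and 5.74 CPM (-1.29, SE 0.17), and RYR2, the calcium release channel of the endoplasmic reticulum, from 19.0 and 20.97 CPM to 9.18 and 10.3 CPM (-1.03, SE 0.12). BORCS7, part of a complex that positions lysosomes, went from 25.9 and 25.7 CPM to 11.1 and 12.4 CPM (-1.14, SE 0.12, adjusted p = 1.40e-05). All 3 were lower in each siOGT2 sample than in each Scr sample, as the naming rule requires (27.5% of tested genes lay so). Further falls were in WNT7B, a Wnt ligand (15.9 and 16.4 to 8.34 and 7.87 CPM), VASH2, which trims tubulin (20.5 and 21.1 to 10.4 and 8.37 CPM), RIPOR2 (15.03 and 15.6 to 7.88 and 5.61 CPM), RFLNB, a filamin-binding protein gene (24.1 and 24.4 to 12.9 and 11.3 CPM), and the histone gene H3C6 (15.6 and 15.5 to 6.97 and 7.15 CPM). Histone genes are near-identical copies whose counts can be split, so the value of H3C6 is uncertain. It was the only one of 37 tested replication-type histone genes to be called, and the list had a median of -0.17. That is 2.70% of the list, against 4.30% of all tested genes called.

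Genes of DNA replication and mitosis fell in number, each by a small amount. Of 55 tested genes of G1/S and DNA replication, 22 fell (40%), 33 did not pass and 0 rose. Their median was -0.34, with 52 members below 0. Of 53 genes of G2/M and mitosis, 15 fell (28.3%), 38 did not pass and 0 rose. Their median was -0.29, with 51 members below 0. Beside these, 2.38% of all tested genes fell, and 473 of the 9722 protein-coding genes with a mean log2 CPM of 3 or more. Both medians were below 0 under every scaling (-0.29 and -0.24 with library size only).

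Within the G1/S list, the helicase that unwinds DNA at origins was represented by MCM2, MCM4, MCM5, MCM6 and MCM7. MCM7 went from 285 and 284 CPM to 206 and 192 CPM (-0.51, SE 0.09, adjusted p = 0.00274), and MCM5 from 76.8 and 73.7 CPM to 55.4 and 46.1 CPM (-0.57, SE 0.11, adjusted p = 0.00669). RRM2, which encodes a subunit of the enzyme that makes deoxyribonucleotides, went from 242 and 258 CPM to 159 and 159 CPM (-0.65, SE 0.12, adjusted p = 0.00298). Next to them were the kinase gene CDK2 (55.0 and 55.0 to 40.9 and 38.5 CPM), its cyclin CCNE1 (14.3 and 15.6 to 10.2 and 9.91 CPM) and CDC6, which loads the helicase (99.6 and 99.4 to 70.2 and 69.1 CPM). The calls of MCM7, RRM2 and CDK2 were lost without siOGT2 replicate 2 (adjusted p = 0.0695, 0.0511 and 0.106) and held without each of the other 3 libraries. PCNA, the sliding clamp of the replication fork, went from 248 and 256 CPM to 198 and 185 CPM (-0.40, SE 0.09, adjusted p = 0.0185). E2F1, the factor after which this gene group is often named, was at 60.3 and 59.5 CPM in Scr and 52.5 and 51.2 CPM in siOGT2 (-0.21, adjusted p = 0.386), and CCND1, cyclin D1, had a value of -0.063 (adjusted p = 0.787).

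Of the mitotic genes, CDK1 went from 326 and 375 CPM to 241 and 261 CPM (-0.48, SE 0.10, adjusted p = 0.00731), KIF20A, a motor of cytokinesis, from 73.4 and 69.2 CPM to 55.2 and 49.0 CPM (-0.45, SE 0.09), and UBE2C, which marks mitotic cyclins for destruction, from 71.3 and 76.4 CPM to 55.6 and 53.1 CPM (-0.44, SE 0.09). MKI67, the usual marker of proliferating cells, was at 221 and 181 CPM in Scr and 191 and 166 CPM in siOGT2 and did not pass (-0.18, adjusted p = 0.462). With 1 library left out, the adjusted p reached 0.137 for CDK1 (without Scr replicate 2), 0.169 for KIF20A and 0.125 for UBE2C (both without siOGT2 replicate 2). Most calls in both lists needed all 4 libraries. The G1/S list gave 6, 7, 11 and 1 calls, and the G2/M list 2, 1, 6 and 1, without Scr replicate 1, Scr replicate 2, siOGT2 replicate 1 and siOGT2 replicate 2 in that order. Their medians stayed between -0.40 and -0.31 and between -0.34 and -0.25.

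The promoters of replication genes are known for short E2F motifs, so the 250 bases before each RefSeq start (GRCh38.p14) were searched on both strands at any listed start for TTTCCCGC, TTTGGCGC, TTTCGCGC and TTTGCCGC; on opposite strands TTTGGCGC and TTTCGCGC can overlap. Of the 47 tested G1/S genes with a promoter in the table, 19 held a match (40.4%), as did 7 of the 18 called lower (38.9%), against 677 of 13220 tested genes (5.12%) and 2.79% of all promoters in the table. In the G2/M list 3 of 13 called genes and 4 of all 45 held one. A match is a description of the letters and was not tested as a binding site. The sequences below show the stretches with a match for 6 of those 7 genes, read 5′ to 3′ on the strand of the gene, with the matched letters in capitals.
UNG: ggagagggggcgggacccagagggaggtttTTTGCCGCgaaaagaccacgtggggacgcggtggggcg
MCM6: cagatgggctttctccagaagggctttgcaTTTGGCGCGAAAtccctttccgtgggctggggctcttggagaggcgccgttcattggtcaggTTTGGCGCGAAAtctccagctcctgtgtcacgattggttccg
PCNA: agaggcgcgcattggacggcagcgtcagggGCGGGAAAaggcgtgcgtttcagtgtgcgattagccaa
POLA1: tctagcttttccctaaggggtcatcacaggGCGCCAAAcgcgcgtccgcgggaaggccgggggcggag
LIG1: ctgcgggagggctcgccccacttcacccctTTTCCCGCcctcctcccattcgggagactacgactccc
CDT1: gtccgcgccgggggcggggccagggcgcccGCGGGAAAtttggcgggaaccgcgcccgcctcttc

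These stretches lie at chr12:109098079-109098146 (plus strand, UNG), chr2:135876492-135876625 (minus, MCM6), chr20:5126644-5126711 (minus, PCNA), chrX:24693751-24693818 (plus, POLA1), chr19:48170421-48170488 (minus, LIG1) and chr16:88803724-88803788 (plus, CDT1), and the match nearest the 5′ end begins 63, 152, 59, 137, 114 and 35 bases before the start. MCM6 holds 4 matches, at each of 2 places TTTGGCGC overlapping TTTCGCGC on the opposite strand. The genes were shown because they carry a match and were called; MCM7, the remaining gene of the 7, holds 2 matches in a stretch of 217 bases that is left out for its length. UNG, which removes uracil from DNA, went from 74.0 and 73.0 CPM to 52.5 and 50.6 CPM (-0.51, SE 0.10; call lost without siOGT2 replicate 2, adjusted p = 0.0813), and LIG1, the ligase that seals replicated strands, from 29.6 and 27.4 CPM to 20.5 and 16.6 CPM (-0.62, SE 0.13). POLA1, the polymerase that starts new strands, went from 49.2 and 51.9 CPM to 33.2 and 41.3 CPM (-0.44, SE 0.10), and CDT1, which licenses origins, from 35.2 and 35.6 CPM to 27.2 and 24.5 CPM (-0.45, SE 0.12). MCM6 went from 175 and 181 CPM to 136 and 135 CPM (-0.39, SE 0.08, adjusted p = 0.00916).

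Genes close to the cell cycle gave fewer calls. The share called was 12.5% of the break repair and checkpoint list and 9.30% of the CDK inhibitor and damage response list. Over protein-coding genes with a mean log2 CPM of 3 or more it was 7.53%, and over all tested genes 4.30%. Of 48 genes of DNA break repair and checkpoints, 6 fell and 0 rose (median -0.17), among them NBN, a sensor of DNA breaks (97.2 and 113 to 75.6 and 72.4 CPM; -0.50, adjusted p = 0.00328, or 0.0902 without Scr replicate 2 and 0.0681 without siOGT2 replicate 2). Of 43 CDK inhibitors and damage response genes, 4 fell and 0 rose (median -0.17). CDKN1A, a CDK inhibitor gene, was at 151 and 168 CPM in Scr and 172 and 192 CPM in siOGT2 (0.19, adjusted p = 0.260). Without Scr replicate 1, Scr replicate 2, siOGT2 replicate 1 and siOGT2 replicate 2, the repair list gave 2, 0, 3 and 0 calls and the CDK inhibitor list 1, 0, 1 and 0.

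**Figure D2:**
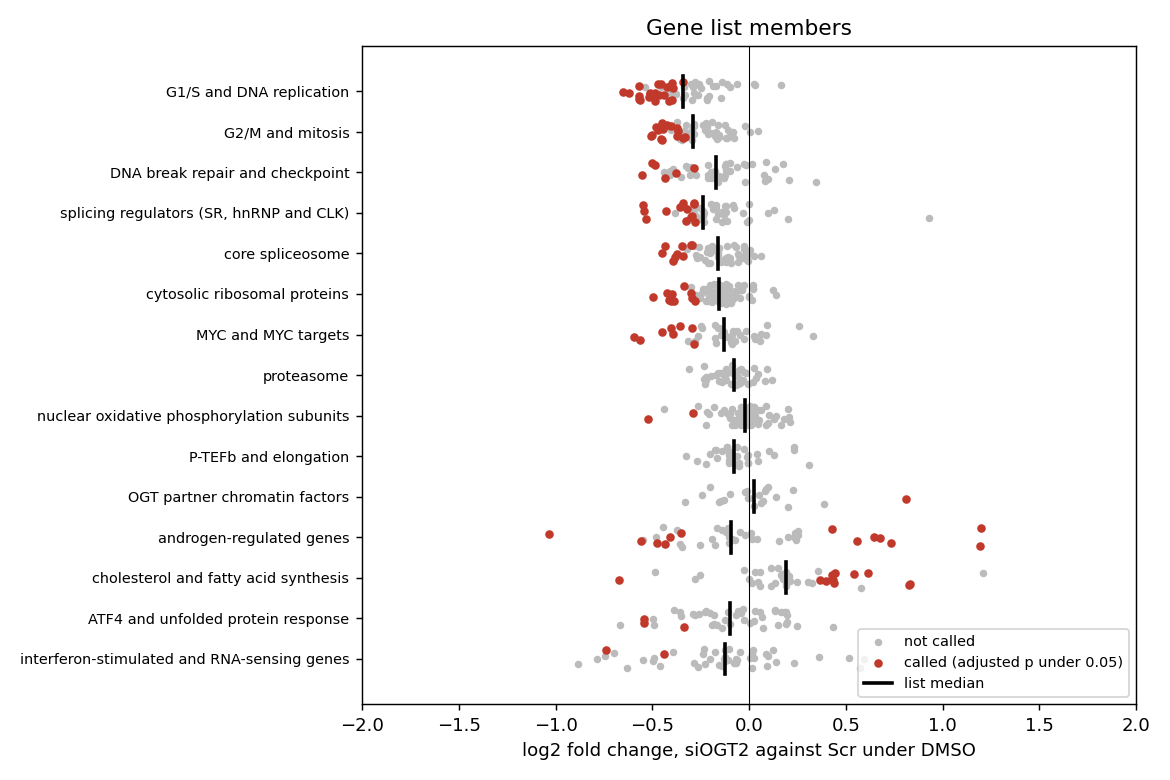
Log2 fold change with siOGT2 against Scr under DMSO for each tested member of 15 gene lists (points; red where called) with the list median (bar). SAMD9L, an interferon-stimulated gene listed at 0 in both Scr samples, lies beyond the axis. The G1/S and G2/M lists lie mostly below 0, with called members to the left, and called members of the cholesterol list lie mostly to the right.

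Some genes of RNA splicing and of the ribosome fell by small amounts, and most did not pass. The share called was 25.5% of splicing regulators, 16.4% of core spliceosome genes and 12.7% of ribosomal protein genes. Over protein-coding genes with a mean log2 CPM of 3 or more it was 7.53%. Of 51 splicing regulators (SR proteins, hnRNPs and their kinases), 13 fell, 38 did not pass and 0 rose, with a median of -0.24. HNRNPAB went from 196 and 209 CPM to 138 and 138 CPM (-0.55, SE 0.07, adjusted p = 1.79e-04) and HNRNPA1, one of the most abundant hnRNP genes, from 2156 and 2195 CPM to 1667 and 1565 CPM (-0.43, SE 0.07, adjusted p = 9.66e-04). Both kept their calls without any 1 library, whereas the list as a whole gave 5, 3, 5 and 3 calls without Scr replicate 1, Scr replicate 2, siOGT2 replicate 1 and siOGT2 replicate 2. SRPK1, a kinase of SR proteins, went from 134 and 151 CPM to 94.9 and 102 CPM (-0.53, SE 0.10, adjusted p = 0.00351, or 0.0765 without Scr replicate 2 and 0.0503 without siOGT2 replicate 1). Of 55 core spliceosome genes, 9 fell and 0 rose (median -0.16), such as the branch point protein SF1 (225 and 241 to 179 and 165 CPM; -0.43, SE 0.09) and SF3B4 (84.1 and 85.6 to 66.8 and 63.1 CPM; -0.39, SE 0.08), and 2, 1, 3 and 0 members were called without the same 4 libraries in turn; SF1 and SF3B4 lost their calls without Scr replicate 2 (adjusted p = 0.0996 and 0.0727) or siOGT2 replicate 2 (adjusted p = 0.14 and 0.128). Gene counts do not measure splicing itself.

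In the ribosome, 10 of 79 protein genes fell and 0 rose (median -0.15). RPS23 went from 601 and 604 CPM to 435 and 420 CPM (-0.49, SE 0.09, adjusted p = 0.0028, or 0.0595 without siOGT2 replicate 2), and RPS16 from 658 and 622 CPM to 502 and 475 CPM (-0.39, SE 0.07, adjusted p = 0.00317, or 0.0541 without Scr replicate 1 and 0.0836 without siOGT2 replicate 2). Ribosomal protein genes have many processed copies, so reads can be split among them. Of 41 MYC target genes with MYC included, 8 fell and 0 rose (19.5% called, median -0.13). Over protein-coding genes with a mean log2 CPM of 3 or more, 7.53% were called. MYC itself went from 155 and 174 CPM to 131 and 138 CPM (-0.29, SE 0.08, adjusted p = 0.04), close to the threshold of 0.05. Its target ODC1, the entry enzyme of polyamine synthesis, went from 483 and 492 CPM to 334 and 313 CPM (-0.59, SE 0.10, adjusted p = 0.0018). NCL, which encodes nucleolin, went from 1537 and 1663 CPM to 1213 and 1220 CPM (-0.39, SE 0.08, adjusted p = 0.00781, and 0.123 without Scr replicate 2, 0.0609 without siOGT2 replicate 1 and 0.0905 without siOGT2 replicate 2). Without siOGT2 replicate 2, there were 0 ribosomal and 1 MYC list calls, and without the other libraries 3 to 6 and 2 to 4. No member of the proteasome list (40 genes, median -0.078) or of the list of P-TEFb and elongation factors (35 genes, median -0.076) was called. CDK9, the kinase of P-TEFb, was at 56.4 and 54.8 CPM in Scr and 55.0 and 55.8 CPM in siOGT2 (-0.006, adjusted p = 0.985).

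Calls among genes of cholesterol and fatty acid synthesis were mostly rises. Of 43 tested, 11 rose, 1 fell (27.9% called) and 31 did not pass, with a median of 0.19 and 5 members below 0. The share called was 4.30% over all tested genes and 7.53% over protein-coding genes with a mean log2 CPM of 3 or more. Along the sterol pathway, MVD, which makes isopentenyl diphosphate, went from 39.4 and 36.3 CPM to 71.5 and 63.4 CPM (0.83, SE 0.10, adjusted p = 9.11e-05), and LSS, which closes the sterol rings, from 114 and 99.9 CPM to 199 and 180 CPM (0.83, SE 0.11, adjusted p = 2.76e-04). MSMO1 (0.54), TM7SF2 (0.43) and DHCR7 (0.44), which carry out later steps, rose less. On the fatty acid side, ACSS2, which makes acetyl-CoA from acetate, went from 70.1 and 66.5 CPM to 110 and 98.4 CPM (0.61, SE 0.08, adjusted p = 2.86e-04), ACLY, which makes it from citrate, from 512 and 504 CPM to 694 and 675 CPM (0.43, SE 0.07), and ACSL1, which activates fatty acids, from 544 and 514 CPM to 748 and 689 CPM (0.44, SE 0.11).

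The single fall in this list was in EBP, a sterol isomerase gene of the same pathway, which went from 104 and 98.8 CPM to 66.0 and 61.6 CPM (-0.67, SE 0.09, adjusted p = 2.42e-04). The genes of the main transcription factors of the pathway did not pass: SREBF1 had a value of 0.19 (adjusted p = 0.445) and SREBF2 one of 0.029 (adjusted p = 0.933). FASN, fatty acid synthase, was just outside the threshold (0.58, adjusted p = 0.052). Without Scr replicate 1, Scr replicate 2, siOGT2 replicate 1 and siOGT2 replicate 2, 9, 6, 6 and 8 members were called, and MVD, LSS, ACSS2 and EBP kept theirs in each. LSS overlaps 2 unnamed genes and ACSS2 overlaps GGT7, all on the opposite strand.

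Among androgen-regulated genes both rises and falls were called. Of 42 tested, 7 were called higher, 6 lower and 29 neither (31.0% called, median -0.095). Over all tested genes 4.30% were called, and over protein-coding genes with a mean log2 CPM of 3 or more 7.53%. The list does not separate genes that androgen raises from genes that it lowers. Its median and the 2 directions therefore do not measure the androgen response. Without Scr replicate 1, Scr replicate 2, siOGT2 replicate 1 and siOGT2 replicate 2, 8, 7, 8 and 4 members were called in place of 13, with medians from -0.17 to -0.017. The rises were led by the UGT2B genes, whose enzymes attach glucuronic acid to steroids and other compounds, UGT2B15 and UGT2B17 to androgens. UGT2B15 went from 499 and 600 CPM to 1109 and 1404 CPM (1.19, SE 0.13, adjusted p = 7.90e-05), UGT2B17 from 634 and 668 CPM to 981 and 1101 CPM (0.68, SE 0.10, adjusted p = 4.78e-04), UGT2B11 from 90.9 and 119 CPM to 195 and 288 CPM (1.20, SE 0.19, adjusted p = 0.0036), and UGT2B28 from 21.6 and 32.1 CPM to 37.99 and 51.3 CPM (0.73, SE 0.19, adjusted p = 0.038). The 4 genes are close paralogs in 1 cluster, so their counts can be split among them and are not independent. The call of UGT2B28 was lost without Scr replicate 1 (adjusted p = 0.264) or siOGT2 replicate 2 (adjusted p = 0.359), with upper-quartile scaling and in a fit of the compared groups only.

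Outside that family, SLC45A3, which encodes prostein, went from 153 and 181 CPM to 230 and 293 CPM (0.65, SE 0.11, adjusted p = 0.00212), a call lost without Scr replicate 1 (adjusted p = 0.0542) or siOGT2 replicate 2 (adjusted p = 0.0836). Among the falls were the kallikrein genes KLK3, which encodes prostate-specific antigen (1029 and 1074 to 785 and 801 CPM; -0.41, SE 0.11, adjusted p = 0.0381), and KLK4 (120 and 129 to 91.5 and 92.9 CPM; -0.43, SE 0.08, adjusted p = 0.00465, or 0.0779 without Scr replicate 2 and 0.0569 without siOGT2 replicate 2). The call of KLK3 was lost without any 1 of the 4 libraries (adjusted p = 0.127, 0.233, 0.179 and 0.218 without Scr replicate 1, Scr replicate 2, siOGT2 replicate 1 and siOGT2 replicate 2) and with upper-quartile or library size scaling. FKBP5, a classical androgen target, also fell (136 and 159 to 109 and 122 CPM; -0.35, adjusted p = 0.0248), while TMPRSS2 had a value of -0.048 (adjusted p = 0.894). Of 21 prostate lineage factors and coregulators, 1 fell, ETV1, an ETS factor gene that is rearranged in LNCaP cells (338 and 378 to 209 and 219 CPM; -0.74, SE 0.08, adjusted p = 2.05e-05), and 0 rose. The share of this list that was called, 4.76%, was close to the 4.30% of all tested genes.

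In the lists of ATF4 and unfolded protein response, interferon and oxidative phosphorylation genes the share called ran from 2.70% to 6.67%. It was 4.30% over all tested genes and 7.53% over protein-coding genes with a mean log2 CPM of 3 or more. Of 45 ATF4 and unfolded protein response genes, 3 fell (6.67%) and 0 rose (median -0.10), with 1 to 2 calls without 1 library, including PDIA4, a protein-folding enzyme of the endoplasmic reticulum (286 and 289 to 197 and 198 CPM; -0.54, SE 0.09, adjusted p = 0.00154). Of 48 interferon-stimulated and RNA-sensing genes, which are often followed after siRNA delivery, 2 fell (4.17%) and 0 rose: OAS3 (51.2 and 51.3 to 37.7 and 38.1 CPM; -0.44, SE 0.08; adjusted p = 0.0601 without siOGT2 replicate 2) and IFI44 (10.8 and 11.9 to 6.47 and 7.11 CPM; -0.74, SE 0.14; adjusted p = 0.0622 without Scr replicate 2 and 0.0593 without siOGT2 replicate 1). Of 74 nuclear oxidative phosphorylation genes, 2 fell (2.70%) and 0 rose, 0 members were called without any 1 of the 4 libraries, and their median changed sign with the scaling (-0.023 with TMM, 0.011 with upper-quartile scaling and 0.031 with library size only).

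Where siOGT2 differs from siOGT1 was tested directly, since both were compared with the same Scr samples. Against Scr, siOGT1 gave 2479 calls (10.4%), 1165 higher (4.89%) and 1314 lower (5.51%). The siRNAs differed from each other under DMSO at 433 genes (1.82%), with 265 higher in siOGT2 (1.11%) and 168 lower (0.705%). Of the 1025 genes called in siOGT2 against Scr, 93 (9.07%) were called in this direct difference. Without siOGT1 replicate 1, siOGT1 replicate 2, siOGT2 replicate 1 and siOGT2 replicate 2, the direct difference gave 195, 131, 162 and 136 calls. In siOGT1 against Scr, 1070, 1027, 1359 and 776 genes were called without Scr replicate 1, Scr replicate 2, siOGT1 replicate 1 and siOGT1 replicate 2. OGT was at 20.7 and 14.6 CPM in siOGT1, so that it was higher in siOGT2 by 0.88 (SE 0.13, adjusted p = 0.00113). OGA was at 58.8 and 35.5 CPM in siOGT1 and did not pass in the difference (0.12, SE 0.22, adjusted p = 0.929), where the samples of the 2 groups overlapped.

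Some of the named genes differed between the siRNAs by about as much as siOGT2 did from Scr, or more. CTSL was at 120 ± 5.06 CPM (SD, n = 2) in siOGT1 (-0.15 against Scr, adjusted p = 0.643), and siOGT2 was lower by 1.13 (SE 0.15, adjusted p = 7.26e-04). CLGN, an endoplasmic reticulum chaperone gene, was at 165 and 185 CPM in Scr, 101 and 114 CPM in siOGT2, whereas siOGT1 had 202 and 228 CPM, a difference between the siRNAs of -1.003 (SE 0.09, adjusted p = 1.85e-06). Here siOGT1 lay above Scr (0.30, adjusted p = 0.0371) and siOGT2 below it (-0.71, adjusted p = 1.48e-04). PLEKHB2, which acts in recycling endosomes, had the opposite arrangement, with 232 and 244 CPM in Scr, 296 and 324 CPM in siOGT2, while siOGT1 had 160 and 155 CPM (difference 0.98, SE 0.07, adjusted p = 1.20e-07). PLEKHB2 overlaps POTEE and a pseudogene on its own strand, and its call against Scr was lost without Scr replicate 1 (adjusted p = 0.0817) or siOGT2 replicate 2 (adjusted p = 0.132).

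Genes of the groups above also differed. UGT2B11 was at 93.2 and 132 CPM in siOGT1, and siOGT2 was higher by 1.10 (SE 0.19, adjusted p = 0.00805); UGT2B15 was higher by 0.73 (adjusted p = 0.00535), UGT2B17 by 0.44 (adjusted p = 0.0192) and UGT2B28 by 0.92 (adjusted p = 0.0172). KLK3 was at 1286 and 1302 CPM in siOGT1, above Scr, and the siRNAs differed by -0.71 (SE 0.11, adjusted p = 9.12e-04). EBP was at 103 and 99.9 CPM in siOGT1, at the level of Scr, and differed by -0.67 (SE 0.09, adjusted p = 1.90e-04), PLPP1, a lipid phosphatase gene, by -0.78 (SE 0.10, adjusted p = 1.55e-04), and PDIA4 by -0.48 (SE 0.09, adjusted p = 0.00535). EBP and PDIA4 were each the 1 lower call of their list. Of 43 cholesterol and fatty acid synthesis genes, 5 were higher in siOGT2 than in siOGT1 (median difference 0.19). ACSS2 was among them (0.54, SE 0.08, adjusted p = 9.68e-04). Of 45 ATF4 and unfolded protein response genes, 7 were higher (median difference 0.21). Among lists, 7 of the 53 G2/M genes were lower in siOGT2 than in siOGT1 and 1 was higher (median difference -0.25), against 2 lower and 0 higher of the 55 G1/S genes (median -0.17). PCNA was among the latter (-0.46, adjusted p = 0.0103). For splicing regulators the difference gave 0 calls among 51 genes, with a median of 0.01.

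**Figure D3:**
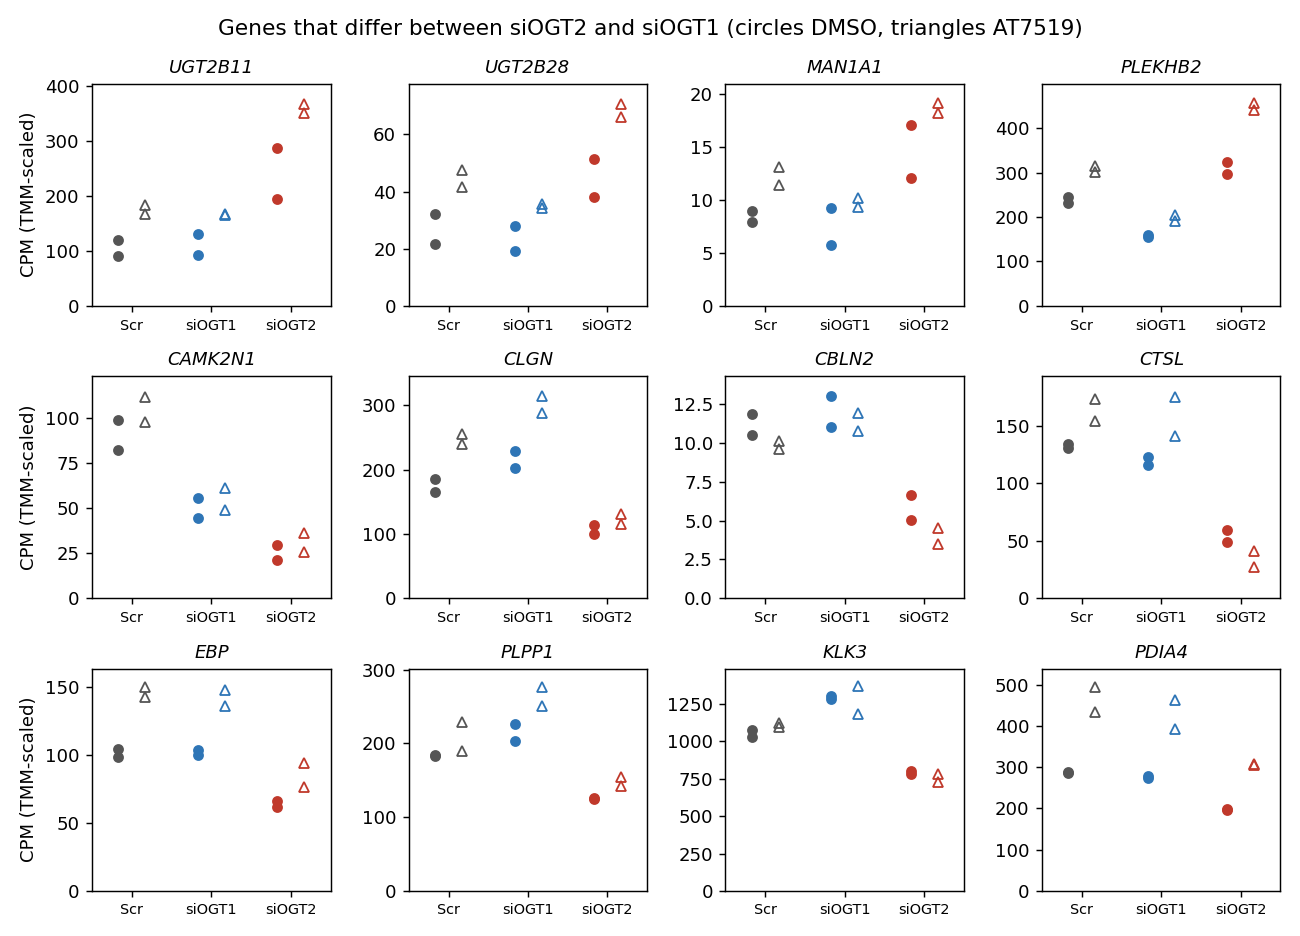
CPM (scaled by TMM) of 12 genes that differed between siOGT2 and siOGT1 under DMSO, 1 point per sample, 2 samples per group, with DMSO as filled circles and AT7519 as open triangles. The siOGT2 samples lie above the siOGT1 samples of the same agent in the first row and below them in the other rows.

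Genes with values against Scr in both siRNAs and no difference between them included several of the larger changes. MAP4K1, which encodes a kinase upstream of JNK, was at 3.33 and 3.41 CPM in Scr, 12.8 and 11.98 CPM in siOGT2 (1.88, SE 0.17, adjusted p = 4.00e-06) while siOGT1 had 14.9 and 15.5 CPM, with a difference between the siRNAs of -0.29 (SE 0.16, adjusted p = 0.537). For ETV1 the difference was -0.007 (adjusted p = 0.99), for APOLD1 0.03 (adjusted p = 0.978), for RRM2 -0.004 (adjusted p = 0.996) and for HNRNPAB -0.10 (adjusted p = 0.671). A difference that misses the threshold does not show that the siRNAs act alike. FBXO15 differed, with siOGT2 lower than siOGT1 (-0.57, SE 0.14, adjusted p = 0.0404).

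The same siRNA contrast was read in 4 other samples, those with AT7519, which share no library with the DMSO comparison. There 1945 genes were called (8.16%), 1116 higher (4.68%) and 829 lower (3.48%). Of the 1025 genes called under DMSO, 1017 (99.2%) had the same sign with AT7519, and 693 (67.6%) were also called there with that sign, which is 35.6% of the calls with AT7519. These were 352 of 457 rises (77.0%) and 341 of 568 falls (60.0%), and 0 genes were called in opposite directions. The median of the DMSO rises was 0.63 with AT7519 and that of the falls -0.40. In a fit of the compared groups only, the count with AT7519 was 247, and it was 1260 without Scr replicate 1, 872 without Scr replicate 2 and 1206 without siOGT2 replicate 2.

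**Figure D4:**
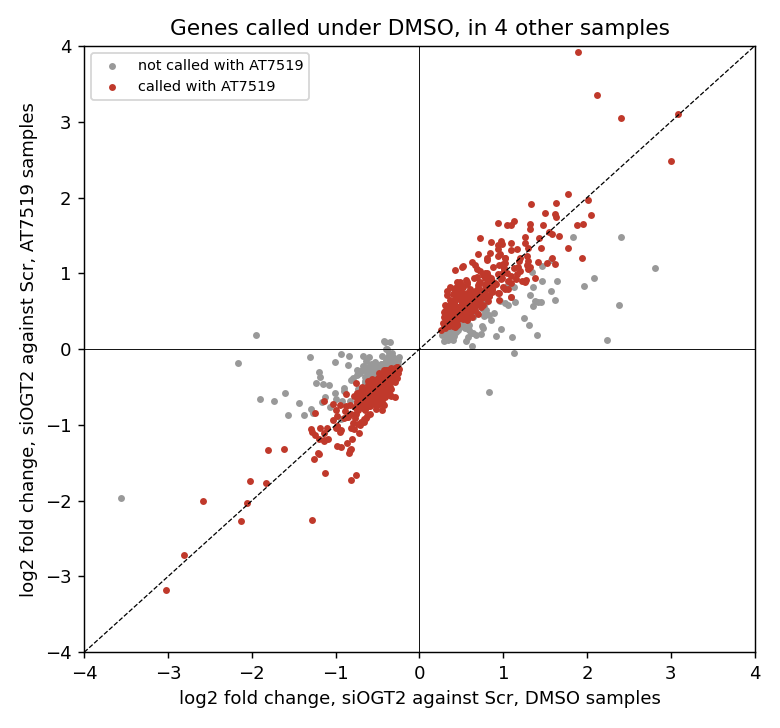
Log2 fold change with siOGT2 against Scr under DMSO (x axis) and with AT7519 (y axis) for genes called under DMSO, red where called with AT7519 as well; 9 genes lie beyond the axes. The genes were chosen by their DMSO values. Of 1025 genes, 1017 have the same sign on both axes, and the dashed line marks equal values.

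With AT7519, OGT was at 255 and 314 CPM in Scr and 29.3 and 33.8 CPM in siOGT2 (-3.18, SE 0.14, adjusted p = 6.68e-10), and OGA at 281 and 255 CPM and 64.0 and 69.1 CPM (-2.01, SE 0.23, adjusted p = 3.50e-04). UGT2B15 was at 910 and 877 CPM in Scr and 2122 and 1876 CPM in siOGT2 (1.16), CAMK2N1 at 112 and 98.1 CPM and 36.2 and 25.7 CPM (-1.76), and MVD at 41.0 and 40.4 CPM and 68.2 and 73.4 CPM (0.80). Of 55 G1/S genes 20 fell and 2 rose, and of 53 G2/M genes 12 fell and 1 rose. Among 51 splicing regulators 10 fell and 0 rose, and among 79 ribosomal protein genes 24 fell and 0 rose. In cholesterol and fatty acid synthesis 16 of 43 genes rose and 1 fell, again EBP (-0.78, adjusted p = 2.41e-05). Each of these lists had a median of the same sign as under DMSO (-0.29, -0.17, -0.18, -0.19 and 0.31). Of all tested genes 4.68% rose and 3.48% fell with AT7519, against 1.92% and 2.38% under DMSO, so the list counts of the 2 agents are not directly comparable.

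Whether the effect of siOGT2 differed between the agents was tested as an interaction, and 0 of 23830 genes were called by edgeR (928, or 3.89%, at an unadjusted p under 0.05), with 3 called by DESeq2 and 2 by edgeR without siOGT2 replicate 1 with AT7519. The lowest value among the named genes was that of CTSL, which was at 173 and 154 CPM in Scr and 41.5 and 26.9 CPM in siOGT2 with AT7519 (interaction -0.98, SE 0.21, adjusted p = 1). The direct difference between the siRNAs was also read with AT7519, a comparison added after the data were seen. Of the 433 genes that differed under DMSO, 430 (99.3%) had the same sign there and 372 (85.9%) were called with it, against 6.43% of all tested genes called (3.56% higher and 2.87% lower; 1532 calls, which became 999 and 841 without siOGT1 replicate 1 and 2), with CLGN at -1.29 (adjusted p = 1.64e-08) and PLEKHB2 at 1.18 (adjusted p = 2.76e-09).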

How the data were processed

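RNA of LNCaP cells was sequenced in 16 samples (8 groups of 2) from strand-specific TruSeq libraries, per the labels' protocols. The authors deposited whole-number counts per gene and sample. Per the submitters' processing notes, tools included STAR, HTSeq and DESeq2, and the builds were hg19 and GRCh37; versions, settings and the strand used in counting were not stated there. A second table of normalized values was not used here. All 37 mitochondrially encoded genes have a count of 0 in every sample of the table.

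The analysis used edgeR 4.0.16 (R 4.3.3). First, filterByExpr on the 8 groups kept 23830 of 60252 genes, libraries were scaled by TMM, and 1 mean per group was fitted over all samples (glmQLFit, robust; glmQLFTest, two-sided, Benjamini-Hochberg, 8 residual degrees of freedom, common biological coefficient of variation 0.11). Each SE was taken as |log2 fold change| divided by √F. Replicates correlated with r of 0.987 (siOGT2) and 0.991 (Scr) under DMSO across genes. The script was tested on simulated counts. Names came from a gene name table (40412 IDs with a symbol), gene types and overlaps from GENCODE v29 on GRCh38, and promoters from RefSeq on GRCh38.p14; for the counts no coordinates are given.

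The rule named OGT and OGA, the 12 largest rises and falls described in the text, up to 4 called members with the smallest adjusted p per list, and the 4 highest and 4 lowest differences from siOGT1 among genes called in both. Other list members were named after their values were seen, by their known role. The members and the 34 gene lists were chosen with earlier results of these data known. Lists are described by counts and medians, with no test. Alternative settings were DESeq2 1.42.0, scaling by RLE, upper quartile or library size only, no low-count filter, the compared groups only, replicate blocks and each sample left out. A few members of these lists are not reported here.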

Additional observations from a re-analysis of the deposited data

How the results depend on the processing

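With siOGT2 against Scr under DMSO, 1025 genes were called, 1598 with DESeq2, 1633 in a fit of the compared groups only, and 182 to 396 with 1 sample left out. With siOGT2 against siOGT1 under DMSO the 433 calls became 783 with DESeq2, 697 with no low-count filter, 825 in a fit of the compared groups only and 131 to 195 with 1 sample left out. With AT7519 the 1945 calls against Scr became 247 in a fit of the compared groups only and 872 to 1520 with 1 sample left out, and the 1532 calls against siOGT1 became 273 and 841 to 1175, with rises at 41.7% of calls with library size only against 55.4%. For siOGT1 against Scr the 2479 calls became 3925 in a fit of the compared groups only and 776 to 1359 with 1 sample left out. The interaction gave 3 calls with DESeq2, 8 with no low-count filter and 0 to 2 with 1 sample left out. The differences between same-numbered replicates of Scr and siOGT2 under DMSO correlated (r = 0.642 over 10028 genes with a mean log2 CPM of 3 or more, 0.0689 over all tested genes). Over the same 10028 genes, r was 0.603 to 0.642 between the 3 siRNA groups under DMSO, 0.684 to 0.734 between those with AT7519, and -0.135 to 0.0402 across agents. Within each agent, same-numbered replicates of the siRNA groups thus shared part of their deviations. No label ties the numbers together, and what the replicates shared was not tested. The main fit holds no replicate term. A fit that leaves a sample out keeps the same-numbered samples of the other groups, so it is unbalanced in the replicate number. With a replicate block the calls were 1605 (siOGT2 against Scr, DMSO) and 678 (against siOGT1), and with a replicate block within agent 2574, 1300, 3931 (siOGT2 against Scr, AT7519), 3190 (against siOGT1, AT7519), 4387 (siOGT1 against Scr, DMSO) and 6 (interaction). None of the 104 named genes changed sign under any of these alternatives, and 70, 60, 75 and 45 kept their calls without Scr replicate 1, Scr replicate 2, siOGT2 replicate 1 and siOGT2 replicate 2. The causes of these moves were not tested, and how depth limits the calls was not tested. The named genes and the 1025 called genes were chosen by their values in these same data. Their kept signs are therefore no separate evidence.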

Other observations

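Outside the groups described above, genes of the lysosome and of other glycosylation pathways were also called with siOGT2 under DMSO. The share called was 11.1% of the lysosome and autophagy list and 7.69% of the glycosyltransferase list. For heat shock and chaperonin genes it was 11.4%, and for glycolysis and hypoxia genes 7.14%. Over protein-coding genes with a mean log2 CPM of 3 or more it was 7.53%, and over all tested genes 4.30%. Of 45 lysosome and autophagy genes, 4 rose and 1 fell (CTSL), with a median of 0.03. The rises included NEU1, a sialidase (48.4 and 43.9 to 65.1 and 59.6 CPM; 0.44, SE 0.08, adjusted p = 0.00502), ATG4A, a protease of autophagy (34.8 and 34.8 to 43.9 and 52.5 CPM; 0.47, SE 0.10, adjusted p = 0.00792), and CTSA (0.41, SE 0.11, adjusted p = 0.0432). Without 1 library the list gave 1 to 3 calls. Of 52 glycosyltransferases of other pathways, 3 rose and 1 fell, and 0 to 2 members were called without 1 library. ST3GAL1, which caps O-linked glycans with sialic acid, went from 922 and 985 CPM to 1254 and 1399 CPM (0.48, SE 0.09, adjusted p = 0.00421), a call lost without Scr replicate 1 (adjusted p = 0.0678) or siOGT2 replicate 2 (adjusted p = 0.103).

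Of 35 heat shock and chaperonin genes, 1 rose and 3 fell, and 1 to 3 members were called without 1 library. HSPB1, a small heat shock protein gene, went from 216 and 197 CPM to 327 and 360 CPM (0.73, SE 0.12, adjusted p = 0.00128), while HSPA9, the mitochondrial chaperone, went from 473 and 498 CPM to 371 and 374 CPM (-0.38, SE 0.08, adjusted p = 0.00568). The call of HSPA9 was lost without Scr replicate 2 (adjusted p = 0.0867), siOGT2 replicate 1 (0.0518) or siOGT2 replicate 2 (0.0713). Of 42 glycolysis and hypoxia genes, 2 rose and 1 fell (0 to 2 calls without 1 library), with ALDOC, an aldolase, at 37.0 and 30.03 CPM in Scr and 52.9 and 48.4 CPM in siOGT2 (0.59, SE 0.10, adjusted p = 0.00211, or 0.0842 without Scr replicate 2).

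The 8 genes called under DMSO whose sign was opposite with AT7519 included TAF5L (-0.35 and 0.093), C6orf62 (-0.38 and 0.005), ZNF200 (-0.42 and 0.11) and ZNF542P (-0.40 and 0.095), none of which was called with AT7519.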
